A study of Homo sapiens with 30 samples.

Results

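Open chromatin was compared directly between G401 cells expressing SNF5 and G401 cells expressing OmoMYC, from 6 ATAC-Seq peak lists, 3 per construct, out of 30 samples in the series. G401 is a malignant rhabdoid tumor line that lacks SMARCB1, the gene for SNF5. The cells carried a TET-inducible transgene for SNF5 or for OmoMYC (OMOMYC in the sample names), and doxycycline was given to both at 1 μg/ml, with harvest at 24 h, so that the 2 groups differ in the transgene and share the parental line, the vector system and the drug. Another group with inducible EGFP served as the series' control and enters below only as a background. The transgenes were delivered by lentivirus and carriers were selected with an antibiotic. The authors called peaks in each library separately, against the hg38 genome. Peaks of the 6 lists that overlapped by at least 1 bp were joined into 39688 sites. Of these, 2588 had a peak in 3 of 3 SNF5 lists and 0 of 3 OmoMYC lists and are called SNF5-only, or 6.52% of the sites. In the other direction, 3 of 3 OmoMYC lists and 0 of 3 SNF5 lists, there were 0 sites (0%). A further 6004 sites had a peak in all 6 lists and are called shared.

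ATAC-Seq marks accessible DNA by the insertion of sequencing adapters by the Tn5 transposase, and peaks form at active promoters, enhancers and other sites cleared of nucleosomes. SNF5 is a core subunit of SWI/SNF, a complex that slides and evicts nucleosomes and is known to act at enhancers far from genes. OmoMYC is a dominant-negative form of the transcription factor MYC that interferes with the binding of MYC to its E-box sites, most of them at promoters that are already open. Setting SNF5 against OmoMYC therefore asks how accessibility differs between cells that regained a remodeler subunit and cells in which MYC was inhibited. AP-1 factors, dimers of the FOS and JUN families, bind the letters TGANTCA and are found at many enhancers of mesenchymal cells, and TEAD factors, the DNA-binding partners of YAP, bind GGAATG.

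Peak sequences could not be read from a genome of the same build, so letters were taken from RefSeq promoter windows (GRCh38.p14), each running from 250 bases before to 50 bases after a gene's start. A summit of an SNF5-only site fell inside 166 of the 35116 windows. TGANTCA, searched on both strands, was in 30 of the 166 (18.1%), in 153 of 5093 windows with a shared summit inside (3.00%) and in 2707 of all windows (7.71%). GGAATG was in 27 of the 166 (16.3%), 9.09% of those with a shared summit and 14.0% of all. The E-box CACGTG ran the other way, with 12 of the 166 (7.23%) against 11.02% for shared summits and 7.26% of all. The TGANTCA share in SNF5-only windows was thus above both the shared windows and the whole, while the GGAATG and CACGTG shares were near those of all windows.

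Shown are 4 windows that hold both an SNF5-only summit and TGANTCA, those with the largest rise among the genes called higher in PRO-Seq (described below), chosen after their values were seen. Each is written 5′ to 3′ on the gene's strand with TGANTCA in capitals. TGFBR2 encodes the type II receptor for TGF-β, ANKRD1 a stress-induced muscle and YAP target protein, PALLD the actin-bundling protein palladin, and MBNL2 a splicing regulator.
TGFBR2, chr3:30606351-30606650, plus strand: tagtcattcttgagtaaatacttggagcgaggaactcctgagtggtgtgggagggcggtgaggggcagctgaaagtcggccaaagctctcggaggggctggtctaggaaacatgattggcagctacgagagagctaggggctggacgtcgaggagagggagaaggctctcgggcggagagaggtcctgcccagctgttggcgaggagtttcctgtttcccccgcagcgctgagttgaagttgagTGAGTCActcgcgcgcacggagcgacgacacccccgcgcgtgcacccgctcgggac
ANKRD1, chr10:90921038-90921337, minus strand: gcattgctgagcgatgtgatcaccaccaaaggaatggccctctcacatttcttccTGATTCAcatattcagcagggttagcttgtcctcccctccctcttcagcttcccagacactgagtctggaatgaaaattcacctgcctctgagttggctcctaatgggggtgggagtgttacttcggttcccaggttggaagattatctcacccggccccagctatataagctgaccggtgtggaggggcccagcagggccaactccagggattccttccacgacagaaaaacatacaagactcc
PALLD, chr4:168831845-168832144, plus strand: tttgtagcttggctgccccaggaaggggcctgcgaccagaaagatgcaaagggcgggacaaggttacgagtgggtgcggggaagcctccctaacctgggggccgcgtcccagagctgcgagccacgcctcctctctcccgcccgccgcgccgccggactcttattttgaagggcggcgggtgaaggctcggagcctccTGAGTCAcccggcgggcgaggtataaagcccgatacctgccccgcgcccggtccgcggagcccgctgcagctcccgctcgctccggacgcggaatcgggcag
MBNL2, chr13:97141584-97141883, plus strand: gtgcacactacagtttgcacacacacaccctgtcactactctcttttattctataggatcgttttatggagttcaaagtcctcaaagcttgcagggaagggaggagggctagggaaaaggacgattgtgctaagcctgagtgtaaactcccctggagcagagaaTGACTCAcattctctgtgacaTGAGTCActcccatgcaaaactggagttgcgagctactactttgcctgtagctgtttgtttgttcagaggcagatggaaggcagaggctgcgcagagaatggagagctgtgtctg
In TGFBR2 the capitals began 6 bases before the start and the site's summit lay 20 bp from it. In ANKRD1 they began 195 bases before the start, with the summit 239 bp upstream. In PALLD they began 52 bases before the start and the summit was 25 bp from it. MBNL2 held 2 copies, beginning 86 and 65 bases before the start, with the summit 95 bp from the start. A match is a description of the letters and not evidence of a bound factor.

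The 6 lists differed in length before any site was compared. The SNF5 lists held 33594, 26602 and 22720 peaks on nuclear chromosomes, and the OmoMYC lists held 7258, 23682 and 12222. The second OmoMYC list was longer than the shortest SNF5 list, so the groups overlapped. The mean was 27639 ± 5511 peaks for SNF5 and 14387 ± 8423 for OmoMYC (SD, n = 3). An exact two-sided permutation test of the difference gave p = 0.20, where 3 against 3 cannot go below 0.10. EGFP lists, for background, held 12482, 17815 and 9206 peaks. The lists carry no read counts, the read totals of the libraries were not used here, and the part of depth in list length was not tested. A peak absent from a list is a peak that was not called, not DNA shown to be closed. The samples are separate samples of a construct in the labels, and nothing used here says whether they came from separate transductions.

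The first OmoMYC list stood apart. It was the shortest, 98.4% of its sites were also in the second OmoMYC list, and across the 6004 shared sites the Spearman correlation of its peak strengths with the other 5 lists ran from 0.56 to 0.59, against 0.75 to 0.83 among those 5. These are correlations across sites within a library, given as a description.

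**Figure D1:**
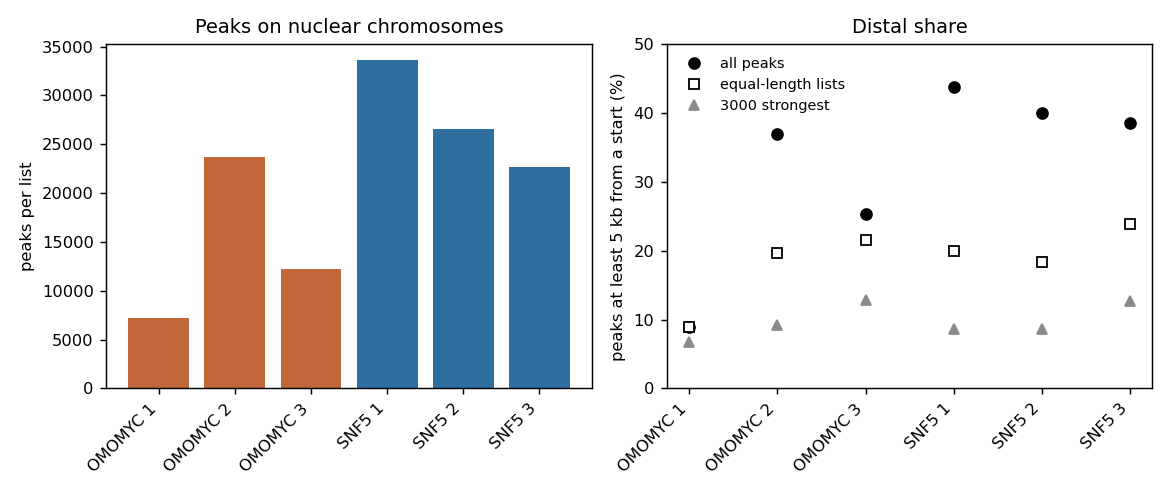
Peaks per list on nuclear chromosomes (left, bars) and the percent of peaks whose summit lies at least 5 kb from a transcript start (right), for the 3 OmoMYC and 3 SNF5 libraries. Circles are all peaks, squares the 7258 strongest of each list and triangles the 3000 strongest. The SNF5 circles sit between 38.6% and 43.8% and the OmoMYC circles between 8.94% and 36.9%, while the squares and triangles of the groups overlap.

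As a check of the labels, no list had a peak over SMARCB1 (chr22:23786931-23838009), so the ATAC-Seq lists themselves do not show the transgene. PRO-Seq, which maps RNA polymerase engaged in transcription and was made from separate libraries of the same constructs, had 2870, 4467 and 3440 gene body counts at SMARCB1 with SNF5, 2, 5 and 4 with OmoMYC, and 4, 1 and 6 with EGFP. Over MYC (chr8:127735434-127742951) the second OmoMYC list had peaks at chr8:127738268-127739019 and chr8:127740401-127740932, with −log10 q of 39.9 and 38.2, each lying 100% within coding exons. The second EGFP list had peaks over the same exons, with −log10 q of 77.8 and 70.3. Whether the reads under these exon peaks came from the gene itself or from MYC coding DNA present in those libraries was not tested, and the second OmoMYC list is also the one on which the count of SNF5-only sites most depends. The first OmoMYC list had no peak at MYC, and the third OmoMYC list and the 3 SNF5 lists had peaks only around its start or just past its end.

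Promoters of markers of other cell types mostly had no peak. Of 19 markers of other lineages found in the annotation, 15 had no peak within 1 kb of a start in any list, among them PTPRC, CD3E, ALB, MYOD1, GFAP and TYR, and 0 of 19 were open in all 6 lists. The OmoMYC lists held 1, 3 and 1 of these markers and the SNF5 lists 4, 3 and 3. The exceptions were the epithelial genes EPCAM, KRT8 and KRT18 and the neural gene SNAP25. Of 11 rhabdoid and mesenchymal markers, 4 to 8 had a peak at a start in each list, and VIM, HMGA2, IGF2BP1 and IGF2BP3 had one in all 6. TWIST1, PRRX1 and THY1 had none in any list, and CD44 had one in the 3 SNF5 lists alone.

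The pattern of sites over the 6 lists was lopsided. Sites with a peak in all 3 SNF5 lists numbered 2588 with 0, 4026 with 1, 4940 with 2 and 6004 with 3 OmoMYC lists. Sites with a peak in all 3 OmoMYC lists numbered 0, 5, 58 and 6004 with 0, 1, 2 and 3 SNF5 lists. Nearly every site common to the OmoMYC lists was therefore also in the SNF5 lists. The second OmoMYC list set the border of the SNF5-only class. Of the 4026 sites with 3 SNF5 lists and 1 OmoMYC list, that 1 list was the second in 3914 (97.2%), the third in 97 and the first in 15. Without it the count of SNF5-only sites was 6514, without the third SNF5 list it was 5064, and without any 1 of the others it was 2603 to 3722.

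**Figure D2:**
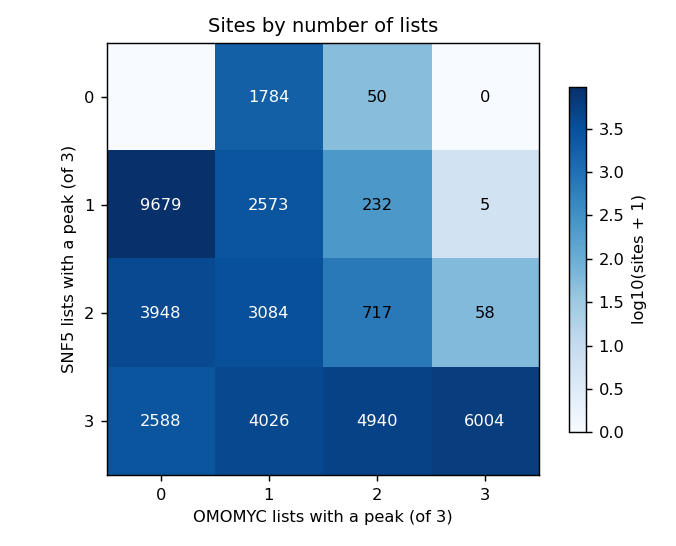
Number of sites by how many of 3 OmoMYC lists (columns) and how many of 3 SNF5 lists (rows) held a peak, with the shade on a log scale. The corner for 0 SNF5 and 3 OmoMYC lists holds 0 sites and the corner for 3 SNF5 and 0 OmoMYC lists holds 2588.

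List length bears directly on these counts, so they were repeated with lists of equal length. With the 7258 strongest peaks of every list, ordered by −log10 q, 192 sites were in all SNF5 lists alone, 61 in all OmoMYC lists alone and 3549 in all 6. The first OmoMYC list sets that length. Without it and at 12222 peaks per list, 545 sites were in all 3 SNF5 lists and in neither of the other OmoMYC lists. In the other direction, 337 were in both of those OmoMYC lists and in no SNF5 list, so 3 lists were set against 2. With the second OmoMYC list alone and 22720 peaks per list, 1857 sites were in all 3 SNF5 lists and not in the OmoMYC list, and 2773 were in the OmoMYC list and in no SNF5 list, a comparison of 3 lists against 1 that was chosen after the data were seen. In single pairs at that length the counts were near each other. Cutting both lists to the same number of peaks builds this in, so it says nothing of an excess. The second OmoMYC list had 5264, 6011 and 6085 sites absent from SNF5 lists 1, 2 and 3, which had 5600, 6019 and 5812 sites absent from it. An excess of SNF5-only sites was thus seen in the full lists and, to a lesser degree, among the 7258 strongest peaks. At that length the first OmoMYC list entered whole, down to a −log10 q of 3.14, and the other lists were cut at 9.06 to 18.5. Across shared sites its peak strengths correlated at 0.57 and 0.59 with the other OmoMYC lists, which correlated at 0.78 with each other. The SNF5 lists correlated at 0.80 to 0.83 among themselves. Whether 192 against 61 reflects the constructs or this spread among the OmoMYC lists was not tested. At 12222 peaks without the first OmoMYC list, 545 sites stood against 337. Against the longest OmoMYC list alone the counts ran the other way. Both of these rules ask for more lists on 1 side than on the other, so neither can show whether an excess is present.

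SNF5-only sites lay mostly away from transcript starts, many of them within genes. The summit was at least 5 kb from the nearest annotated transcript start at 1736 of 2588 SNF5-only sites (67.1%, 95% exact binomial interval 65.2 to 68.9), against 442 of 6004 shared sites (7.36%, 6.71 to 8.05). Over all 39688 sites the share was 47.1%, and at the 9679 sites in 1 SNF5 list alone it was 58.9%. Shared sites must be in the first OmoMYC list, of which 8.94% was distal. The summit was over 50 kb away at 15.1% of SNF5-only and 1.95% of shared sites, and within 1 kb at 17.3% and 89.9%. The median distance was 11847 bp for SNF5-only and 68 bp for shared sites. The intervals cover counting error only. By the annotation under the summit, 447 SNF5-only sites were at a promoter (within 1 kb of a start), 1244 in an intron, 818 between genes, 66 in a UTR or noncoding exon and 13 in a coding exon. Introns thus held 48.1% of SNF5-only and 4.28% of shared sites.

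**Figure D3:**
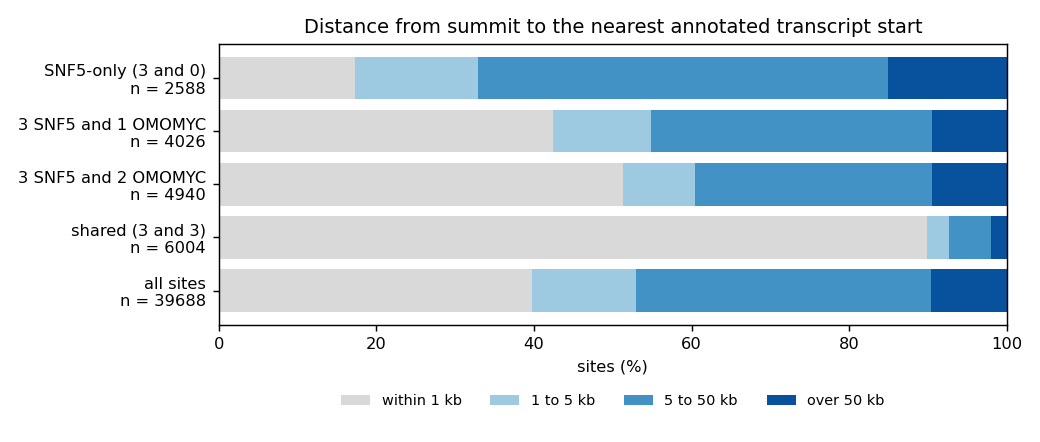
Percent of sites by distance from the summit to the nearest transcript start, for sites in all 3 SNF5 lists with 0, 1, 2 or 3 OmoMYC lists and for all sites. The share beyond 5 kb falls from 67.1% with 0 to 45.2% with 1, 39.6% with 2 and 7.36% with 3 OmoMYC lists.

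Sites held by few lists were mostly distal for either construct. Distal sites made up 45.2% of the sites with 3 SNF5 and 1 OmoMYC list and 39.6% of those with 2. The 50 sites in 2 OmoMYC lists and no SNF5 list were 66.0% distal (51.2 to 78.8), and the 1784 sites in 1 OmoMYC list alone were 59.8% distal. At equal length, 67.2% of the 192 SNF5 sites and 6.56% of the 61 OmoMYC sites were distal, but the latter class needs the first OmoMYC list, of which 8.94% was distal throughout. Against the second OmoMYC list alone, the 1857 SNF5 sites were 67.4% distal and the 2773 OmoMYC sites 56.5%.

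The makeup of whole lists was compared at equal length for the same reason. Over all peaks, 43.8%, 39.9% and 38.6% were distal in the SNF5 lists and 8.94%, 36.9% and 25.4% in the OmoMYC lists, groups that did not overlap (exact permutation test, p = 0.10, the smallest possible). Among the 7258 strongest peaks the shares were 19.98%, 18.4% and 23.9% for SNF5 and 8.94%, 19.7% and 21.6% for OmoMYC. The means were 20.8% ± 2.87 and 16.7% ± 6.83 (SD, n = 3), a difference of 4.01 percentage points that was within the spread (exact permutation test, p = 0.50). Without the first OmoMYC list the difference was 0.108 points. Among the 3000 strongest peaks the means were 9.94% and 9.60% (exact permutation test, p = 1.0). EGFP lists had 14.0%, 17.3% and 15.8% distal peaks at the length of 7258.

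SNF5-only sites were weak to moderate peaks. Their −log10 q, the caller's measure of confidence, had medians of 10.7, 9.86 and 8.79 in SNF5 lists 1, 2 and 3, at the 49.8th, 44.3rd and 36.7th percentile of those lists. Shared sites had medians of 26.6, 22.4 and 19.4 there. Only 2 SNF5-only sites were among the 3000 strongest peaks of all 3 SNF5 lists, 76 were among the 7258 strongest and 1691 among the 22720 strongest. Of the 76, 84.2% were distal. The median width was 313 bp for SNF5-only and 647 bp for shared sites. Fold enrichment over the local background, as the authors' caller gave it, had medians of 5.74, 6.44 and 6.18 at SNF5-only sites.

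The 10 strongest SNF5-only sites, ranked by the lowest of their 3 values, were mostly in introns and between genes. The first was chr4:176270698-176271002, an intronic site 1605 bp from a start of ASB5, a muscle ankyrin repeat gene, with −log10 q of 39.1, 28.7 and 26.5 in the 3 SNF5 lists. The second, chr17:56699452-56699853, lay between genes 95607 bp from C17orf67 and had values of 35.2, 26.3 and 29.1. The third, chr2:214593676-214594123, in an intron 83681 bp from the start of VWC2L-IT1, had 25.8, 30.0 and 24.98. An intronic site of FYB2, chr1:56688486-56688887, had 24.4, 26.0 and 27.6 and was the only one of the 10 with a peak in an EGFP list.

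Of the other 6, 2 were at promoters. The site chr6:132131772-132132190 lay 27 bp from the start of the noncoding RNA LINC01013, with −log10 q of 23.03, 30.8 and 26.8. LINC01013 neighbours CCN2, a secreted matrix protein and a classic YAP target, whose own start was 180612 bp away and was open in all 6 lists. The site chr3:23865940-23866432 lay 27 bp from a start of UBE2E1, a ubiquitin-conjugating enzyme, with 21.6, 21.9 and 21.9. An intronic site 6324 bp from a start of SEMA3E, a secreted semaphorin that guides axons and vessels, chr7:83468309-83468660, had 23.5, 27.0 and 22.0. The remaining 3 were chr8:108120228-108120661, whose nearest protein-coding start was that of RSPO2 at 36740 bp, chr4:132003514-132004052 in an intron of an unnamed noncoding gene, and chr2:223262912-223263411 between genes. Their lowest values were 23.5, 21.3 and 21.1.

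SNF5-only sites were spread over 1980 protein-coding genes when each was assigned to the nearest coding start. Of these, 1529 genes had 1 site, 337 had 2, 80 had 3, 26 had 4, 7 had 5 and 1 had 6. LSAMP, a neuronal cell adhesion gene, had 6, of which 5 were intronic. Those with 5 were ASTN2, FGGY, PLEKHM3, PRKCH, RAP2B, SLC39A10 and TGFB2. Of the 5 sites of RAP2B, a RAS-related GTPase, all lay between genes, from 11749 to 109998 bp from its start. TGFB2, a ligand of the TGF-β family, had no peak at a start in any list. ACTBL2 and AGA came next by name among the 26 genes with 4. By chromosome, SNF5-only sites were from 2.74% of the sites on chromosome 22 to 8.88% on chromosome 3.

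Genes of several signalling and matrix pathways carried SNF5-only sites more often than the 9.97% of all protein-coding genes that had at least 1 assigned. The lists were drawn up with earlier results of these data known, so their counts are a description. Among YAP and TEAD pathway genes 9 of 23 had a site, among axon guidance genes 11 of 29, receptor tyrosine kinases 12 of 32, TGF-beta and BMP pathway genes 11 of 32, matrix genes 9 of 27, ERK feedback genes 9 of 19 and WNT pathway genes 9 of 38. AP-1 family genes had 4 of 19, and rhabdoid and mesenchymal markers 3 of 11. Other lists were nearer the share of all genes, from 10.3% to 13.0%. Contractile genes had 3 of 23, integrins and cadherins 3 of 23 and CDK inhibitors 1 of 8. Kidney development transcription factors had 3 of 27 and SWI/SNF subunits 3 of 29. At the other end, 0 of 39 HOX genes, 1 of 78 ribosomal protein genes and 2 of 34 DNA replication genes had one. The MYC, MAX and MXD network, with 1 of 12, and markers of other cell types, with 2 of 19, were also near the share of all genes.

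A site at the start itself was rarer. Of 19856 protein-coding genes, 347 (1.75%) had an SNF5-only summit no more than 1 kb from a start. Receptor tyrosine kinases had 4 of 32, namely IGF1R, FGFR1, MET and EPHA2, and in each the site was at 1 of several starts while another start had a peak in at least 1 OmoMYC list. The MET site, chr7:116672141-116672542, had −log10 q of 6.19, 13.0 and 5.99 in the SNF5 lists. TGF-beta and BMP pathway genes had 3 of 32, the receptors TGFBR2 and ACVR1 and the ligand BMP7. YAP and TEAD pathway genes had 2 of 23, ANKRD1 and the LIM protein gene AJUBA. The ACVR1 site had 18.6, 17.4 and 19.3, at a gene with another start open in all 6 lists. ANKRD1 had 16.7, 17.7 and 16.7 at chr10:90921097-90921514 and no peak at a start in any OmoMYC list. Single genes in other lists were SPARC among matrix genes, SEMA3E among axon guidance genes, PAX8 among kidney development transcription factors, SMARCA2, an ATPase of SWI/SNF, among its subunits, and CD44 among mesenchymal markers. SPARC and SMARCA2 also had a peak at a start in 1 and 2 OmoMYC lists. The PAX8 site, chr2:113240926-113241273, lay 720 bp from a start and had 17.1, 20.02 and 9.41.

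Other members carried sites away from their starts. JUN had 2, the nearer 28347 bp from its start at chr1:58755539-58755862. CCN2 had 3, TCF7L2, a WNT effector, 4, the receptor LGR5 2, PLXNA2, a semaphorin receptor, 4, and HMGA2, a chromatin protein gene, 3, the nearest 1444 bp from its start. CDKN2B, a CDK inhibitor, had 1, at chr9:22103267-22103560, 94130 bp from its start.

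In the other direction few sites could be named. The 50 sites with 2 OmoMYC lists and no SNF5 list were in OmoMYC lists 2 and 3 in 44 cases and in lists 1 and 2 in 6. The lower of their 2 values had a median of 6.07. The strongest, chr4:131054723-131054937, lay between genes and had −log10 q of 14.8 and 12.7. Next were an intronic site of UNC13C, a synaptic vesicle gene, chr15:54274005-54274210, with 14.9 and 8.78, and chr7:97065068-97065264, 40212 bp from DLX5, a homeobox gene, with 11.8 and 8.78. These values were below those of the 10 strongest SNF5-only sites. Those were picked from 2588 sites and these from 50, in lists of other lengths, so the strength of the 2 classes is not compared.

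EGFP lists gave a background measured in the same way. Of the 2588 SNF5-only sites, 2310 (89.3%) had no peak in any EGFP list, 231 had a peak in 1, 44 in 2 and 3 in all 3. Of the 6004 shared sites, 5293 (88.2%) had a peak in all 3 EGFP lists and 5 in none. Of the 50 sites in 2 OmoMYC lists and no SNF5 list, 40 had no EGFP peak. Sites that separated SNF5 from OmoMYC were thus mostly absent from the control lists as well, and the EGFP lists are about as short as the OmoMYC lists.

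At shared sites, strength was compared by rank, since −log10 q grows with depth and only the order within a list carries over. Each site was ranked by −log10 q among the 6004 in each list, and the ranks were turned into normal scores, in which a difference of 1 is 1 SD of the list. Of the 6004, 442 were distal. Their median rank percentile was 39.2, 32.3 and 39.6 in the SNF5 lists and 38.8, 36.6 and 44.6 in the OmoMYC lists. The difference of the means, −2.98 percentile points, was within the spread (exact permutation test, p = 0.60). Promoter sites had medians from 51.0 to 52.2 in all 6 lists.

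No single shared site passed. By limma with Benjamini-Hochberg adjustment, 0 of 6004 sites (0%) differed in rank, 300 had an unadjusted p under 0.05, and the lowest adjusted p was 0.40. In 299 sites (4.98%) every SNF5 rank was above every OmoMYC rank, and in 306 (5.10%) every one was below. The counts in the 2 directions were nearly equal, and distal sites made up 7.02% of the former and 8.82% of the latter, close to the 7.36% of all shared sites.

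**Figure D4:**
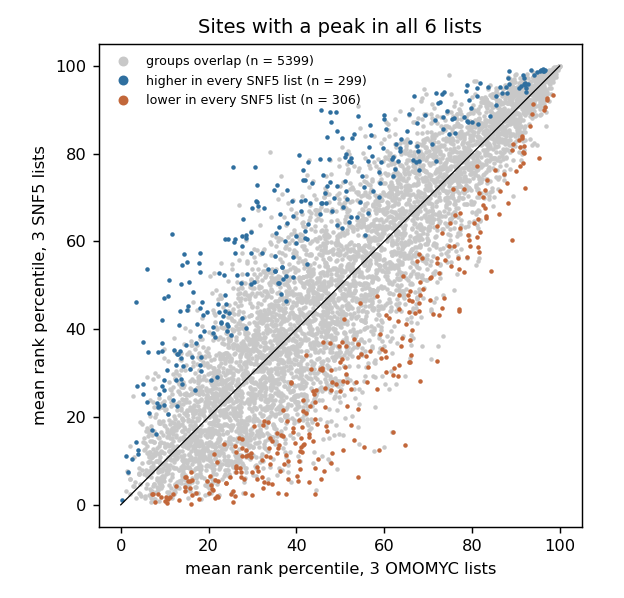
Mean rank percentile by −log10 q of each of the 6004 shared sites in the 3 OmoMYC lists (horizontal) and the 3 SNF5 lists (vertical), with the line of equal rank. Blue marks the 299 sites ranked higher in every SNF5 list and orange the 306 ranked lower in every one; the remaining sites are grey.

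The sites with the largest differences among those whose groups did not overlap are given as a description. The promoter site of EMP1, a membrane protein gene, chr12:13196024-13196892, was at percentiles 50.9, 31.3 and 28.7 in the SNF5 lists and 0.192, 14.3 and 0.533 in the OmoMYC lists, a difference of 1.84 ± 0.46 (SE) in normal score. The promoter of ARHGAP18, a regulator of the cytoskeleton, chr6:129709972-129710429, was at 69.7, 15.6 and 53.3 against 1.89, 5.15 and 3.46. The promoter beside NFE2L1-DT, chr17:48048044-48048817, was at 48.7, 51.7 and 61.1 against 3.13, 11.4 and 3.41. ANO3, TMEM168 and HDAC9 promoters, a STAM intron and a site near LINC01049 made up the 8 in that direction. At ANO3, TMEM168 and HDAC9 the gap came mostly from the first OmoMYC list.

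In the other direction, the promoter of SGSM3, chr22:40370421-40370815, was at percentiles 0.0666, 0.383 and 0.0333 in the SNF5 lists and 25.3, 11.03 and 11.7 in the OmoMYC lists, a difference of −2.11 ± 0.35 (SE). The promoter of B4GALT5, a galactosyltransferase gene, chr20:49713735-49714123, was at 1.30, 0.433 and 0.0167 against 32.8, 6.07 and 38.0. The promoters of GNB2, a G protein subunit gene, PHACTR2 and BLTP2 also ranked lower with SNF5. The last 3 of these 8 were intergenic sites at chr16:46399175-46399612, chr16:34594875-34595338 and chr9:63823309-63823999.

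PRO-Seq gave a readout of the same constructs that the site rule did not use. Gene body counts, 28388012 to 46859674 per library over 9 libraries, were compared between SNF5 and OmoMYC with edgeR's quasi-likelihood test over 15060 genes, of which 11.5% were higher and 7.38% lower with SNF5 at an adjusted p under 0.05. Of the 1980 genes nearest to SNF5-only sites, 1647 were tested and 478 (29.0%) were higher and 74 (4.49%) lower, with a median log2 change of 0.15 against −0.01 over all genes tested. The third PRO-Seq replicate stood apart in every construct. MET had 81.9, 103 and 0.876 CPM, counts scaled to the library total, with SNF5 and 66.1, 78.3 and 0.365 with OmoMYC, and PRRX1, a mesenchymal transcription factor gene, had 0.371, 0.730 and 29.1 against 0.116, 0.544 and 30.3. The replicate number was therefore a term of the fit, and the cause of the difference was not tested. Without the third replicate 45.1% of the genes nearest to SNF5-only sites were higher against 21.7% of all genes, and with no replicate term 1.76% against 0.458%.

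Among the 11999 tested genes with no SNF5-only site assigned, 9.29% were higher and 7.84% lower. The share higher was 26.0% of 1242 genes with 1 site, 34.8% of 299 with 2 and 49 of 98 genes with 3 or 4. Of the 8 genes with 5 or more, 2 were higher (RAP2B and PLEKHM3) and 3 lower (ASTN2, FGGY and TGFB2).

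The share of higher genes was also above the background at equal list length. Genes nearest to the 192 SNF5 sites of the equal-length lists were higher in 28.5% of 151 and lower in 3.31%, and genes nearest to the 61 OmoMYC sites in 9.09% and 7.27% of 55. Against the second OmoMYC list alone at equal length, 29.9% of 1250 genes nearest to SNF5 sites were higher, and 20.3% of 1751 nearest to the OmoMYC sites. Genes nearest to sites with 3 SNF5 lists and 1 or 2 OmoMYC lists were higher in 16.0% and 15.3%, and those nearest to shared sites in 10.54%. With SNF5-only sites defined without the second OmoMYC list the share was 19.5%. Sites in a single list were also near genes above the background, with 19.2% for 1 SNF5 list and 20.02% for 1 OmoMYC list. The 29.0% near SNF5-only sites was above both, but the difference was not tested.

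At the start itself the count was lower. Of 347 genes with an SNF5-only site within 1 kb of a start, 304 were tested, and 71 (23.4%) were higher and 18 (5.92%) lower, with a median log2 change of 0.05. In the equal-length lists only 4 of 36 such genes were higher (11.1%), near the background, and without the second OmoMYC list 205 of 1650 (12.4%). Of genes with an SNF5-only summit in the RefSeq window, 6 of 18 with TGANTCA and 14 of 95 without it were higher.

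**Figure D5:**
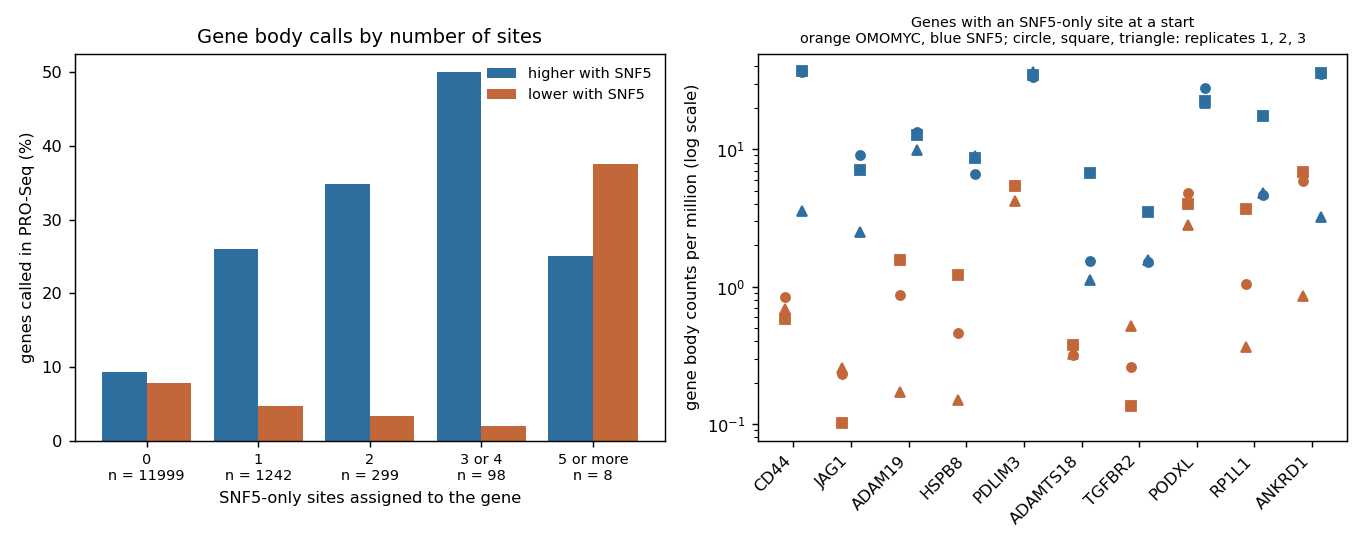
Left, percent of tested genes called higher (blue) or lower (orange) with SNF5 than with OmoMYC in PRO-Seq gene bodies, by the number of SNF5-only sites assigned, from 9.29% higher with 0 sites to 49 of 98 genes with 3 or 4, with 8 genes in the class of 5 or more. Right, gene body CPM on a log axis for the 10 genes with an SNF5-only site at a start and the largest change, in orange for OmoMYC and blue for SNF5, with 1 symbol per replicate.

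CD44, the hyaluronan receptor and a marker of mesenchymal cells, had an SNF5-only site at chr11:35214799-35215112, 237 bp from a start, with −log10 q of 11.2, 12.9 and 8.57. Its gene body held 36.2, 36.8 and 3.53 CPM with SNF5 and 0.839, 0.578 and 0.687 with OmoMYC, against 1.01 to 1.21 with EGFP. All SNF5 values were above all OmoMYC values, but the third SNF5 library was far below the other 2. The fitted log2 change was 4.78 ± 0.68 (SE), adjusted p = 0.0018 by edgeR.

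JAG1, a Notch ligand, had a site at chr20:10647521-10647825 and gene body values of 9.01, 7.07 and 2.52 CPM with SNF5 and 0.231, 0.102 and 0.258 with OmoMYC. The OmoMYC values stand for 8, 3 and 12 counts, and another start of JAG1 had a peak in 1 OmoMYC list. Its log2 change was 4.72 ± 0.54 (SE). ADAM19, a membrane metalloprotease gene, had 13.4, 12.7 and 9.91 with SNF5 and 0.868, 1.56 and 0.172 with OmoMYC, and a log2 change of 4.002 ± 0.39 (SE). HSPB8, a small heat shock protein gene, had 6.58, 8.61 and 8.92 against 0.463, 1.22 and 0.150.

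PDLIM3, an actin-associated LIM protein gene of muscle, had its site 17 bp from the start at chr4:185535119-185535664 and was even across replicates. It had 33.7, 34.6 and 36.3 CPM with SNF5, 5.52, 5.37 and 4.21 with OmoMYC and 3.15 to 4.88 with EGFP. The log2 change was 2.80 ± 0.16 (SE), adjusted p = 1.7e-05 by edgeR. PODXL, a sialomucin of kidney podocytes, had 28.0, 22.5 and 21.9 against 4.77, 4.01 and 2.79, with a site 18 bp from its start at chr7:131556510-131556876. Both genes were separated by far more than the replicates differed.

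TGFBR2 had 1.51, 3.51 and 1.57 CPM with SNF5 and 0.260, 0.136 and 0.515 with OmoMYC, and a log2 change of 2.72 ± 0.51 (SE). ANKRD1 had 35.2, 35.7 and 3.21 against 5.87, 6.86 and 0.859, so that the groups overlapped, while within each replicate number SNF5 was above OmoMYC. The log2 change was 2.34 ± 0.18 (SE). RP1L1, a photoreceptor gene, had 4.65, 17.4 and 4.78 against 1.04, 3.70 and 0.365, groups that did not overlap. ADAMTS18, a secreted metalloprotease gene, had 1.54, 6.73 and 1.12 against 0.318, 0.374 and 0.322. PALLD had 7.50, 10.1 and 5.17 against 2.52, 3.77 and 1.503, and MBNL2 had 400, 418 and 237 against 204, 221 and 77.1. MBNL2 had a peak at a start in all 6 lists. Its SNF5-only summit lay near a RefSeq start, and the nearest to a GENCODE coding start of MBNL2 was 28473 bp away.

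The genes that fell moved less. OSBP2, an oxysterol-binding protein gene, had 43.9, 41.2 and 51.5 CPM with SNF5 and 72.0, 63.5 and 60.8 with OmoMYC, a log2 change of −0.52 ± 0.09 (SE). EFHD1, a mitochondrial calcium-binding protein gene, had 13.1, 14.5 and 12.9 against 20.2, 23.4 and 16.3. FEZ1 and DNAJC5B had log2 changes of −0.64 and −0.60, and their groups overlapped. FEZ1 also had a peak at a start in all 6 lists.

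Over all protein-coding genes found in PRO-Seq, 1593 were higher and 1015 lower with SNF5 of 13646, so that more higher than lower calls in a list is also what the background gives. Matrix genes were higher in 12 and lower in 0 of 20 tested, with a median log2 change of 0.69. Axon guidance genes were higher in 10 and lower in 1 of 28, contractile genes in 9 and 0 of 22, integrins and cadherins in 9 and 1 of 22, WNT pathway genes in 9 and 2 of 34, and YAP and TEAD pathway genes in 7 and 2 of 22. Receptor tyrosine kinases, TGF-beta and BMP pathway genes and ERK feedback genes had 6 and 2 of 29, 6 and 3 of 29, and 5 and 2 of 18. AP-1 family genes had 5 and 2 of 17, CDK inhibitors 2 and 0 of 8, kidney development transcription factors 3 and 2 of 13, SWI/SNF subunits 2 and 3 of 28, rhabdoid and mesenchymal markers 4 and 0 of 10 and markers of other cell types 2 and 0 of 6. DNA replication genes had 1 and 1 of 33 and HOX genes 1 and 2 of 28. The MYC, MAX and MXD network went the other way, with 0 higher and 5 lower of 10. The tallies of the network and of SWI/SNF subunits each hold a gene whose counts may take in transgene reads, MYC among the lower genes of the network and SMARCB1 among the higher SWI/SNF subunits. Ribosomal protein genes were higher in 15 and lower in 0 of 68 although 1 of them had an SNF5-only site assigned.

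Among named members with SNF5-only sites assigned were JUN with a log2 change of 1.14 ± 0.19 (SE), CCN2 (listed as CTGF) with 0.81 ± 0.07, SPARC with 1.44 ± 0.19, PLXNA2 with 1.60 ± 0.12, MYLK, a myosin kinase of smooth muscle, with 2.60 ± 0.15, the WNT receptor ROR1 with 2.32 ± 0.33 and CDKN2B with 1.66 ± 0.24, all higher with SNF5 by edgeR at an adjusted p of 0.0035 or less. TGFB2, with 5 sites, was lower, at −0.66 ± 0.09. Some genes with strong sites were not called, such as LGR5 (1.17 ± 0.40, adjusted p = 0.072), PAX8 (0.89 ± 0.47, adjusted p = 0.22) and ASB5 (1.35 ± 0.50, adjusted p = 0.094), all by edgeR.

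MYC itself had 64.3, 85.6 and 74.7 CPM with SNF5, 147, 383 and 132 with OmoMYC and 102, 124 and 86.3 with EGFP. Reads of the OmoMYC transgene, made from MYC, and reads of the endogenous gene cannot be told apart in these counts.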

How the data were processed

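G401 cells were profiled by ATAC-Seq (3 samples per construct) and PRO-Seq (3 per construct). Reads were not realigned. For ATAC-Seq the submitters' processing notes and the study's methods name Cutadapt, Bowtie2 and MACS2, and the authors called peaks in each library on hg38. The deposited lists give, per peak, a fold ratio over the local background, −log10 p and −log10 q, whose lowest values were 3.02 to 3.61, and a summit. They hold no counts, and library read totals were not used here. Peaks on chromosomes 1 to 22, X and Y were used, leaving out 2 mitochondrial peaks per list. For PRO-Seq the authors deposited raw gene body counts per RefSeq transcript (reads aligned to hg19), and beside them signal density columns (reads per bp of gene body) that entered no test.

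Overlapping peaks were merged into sites. Distances ran from the strongest summit to transcript starts at the original GRCh38 positions that the GENCODE 44 annotation records, and no coordinate was converted. Ranks at shared sites were tested with limma 3.58.1. PRO-Seq counts (mean of at least 10, 1 transcript per symbol) were tested with edgeR 4.0.16, RLE factors and the replicate number as a block. The block was used since the study accounts for a batch effect. Deviations from the group means correlated between samples of the same number (0.87, 0.86 and 0.88). No correlation was taken between samples of different numbers, and the third replicate stood apart in every construct. The values therefore cannot show that samples were paired by number. DESeq2 1.42.0 was an alternative. Of 19856 protein-coding symbols 13646 were found in PRO-Seq, 1203 by an older symbol in RefSeq. Adjusted p-values are Benjamini-Hochberg values over all features tested. Both fits were tested on simulated data. The rank fit recovered 60.5% of 200 sites shifted by 1.5 in normal score, and 5.47% of its calls were false, so real differences could be missed. The PRO-Seq fit recovered 81% of 200 genes changed by a factor of 2, and 6.90% of its calls were false. Sites were named by the highest minimum of 3 SNF5 values (10), by the largest rank difference where groups did not overlap (8 each way), and by the most sites assigned (10, ties by name). List members named were up to 4 per list, those with a site at a start first. PRO-Seq genes were the 10 largest changes among those with a site at a start, and the 4 largest falls were added after their values were seen, as were the 2 genes PALLD and MBNL2. The comparison, its members and the gene lists were chosen with earlier results of these data known.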

Additional observations from a re-analysis of the deposited data

How the results depend on the processing

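The number of SNF5-only sites, 2588 as reported, was 975 with peaks of −log10 q of at least 10, 192 with equally long lists and 6536 with at least 2 of 3 against 0 of 3. It was 2603 to 6514 when each library was left out. OmoMYC-only sites, 0 as reported, numbered 2, 61 and 50 under the same 3 settings, 12 with summits within 150 bp, 0 to 45 without each library, and 2773 with the second OmoMYC list alone at equal length, which was added after seeing the data. Merging all 9 lists gave 2582 and 0. The distal share of SNF5-only sites, 67.1%, was 59.9% at the stricter threshold, 62.4% with 2 of 3 and 53.9% to 66.9% without each library, the lowest without the second OmoMYC list. Differences in peaks per list (9687 to 17899), in distal share of equal-length lists (0.108 to 6.44 points) and in rank of distal shared sites (−4.69 to −0.623 points) kept their sign without each library. By whole-list percentile, which moves with list length, distal shared sites ranked 18.0 points higher with SNF5 (exact permutation test, p = 0.20). Rank calls at shared sites stayed at 0 under all alternatives run, with 87 to 774 sites at an unadjusted limma p under 0.05. With the replicate block the count was 0, with 338 such sites. Rank deviations of same-numbered ATAC-Seq samples from their group means hardly correlated (−0.01, 0.03 and 0.11), which cannot show whether the samples were prepared as pairs.

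PRO-Seq calls rested on the replicate block. With no replicate block, 6 genes with an SNF5-only site at a start were higher and 0 lower, in place of 71 and 18, and 1.76% of the genes nearest to SNF5-only sites were higher, in place of 29.0%, against 0.458% of all genes. Leaving out each replicate number gave 32 to 104 higher and 0 to 55 lower genes with a site at a start, and 12.8% to 45.1% of nearest genes. Without number 1, 2 or 3, 4.67%, 4.11% or 21.7% of all genes were higher. DESeq2, TMM factors and no filter changed no count by over 1.5 times. In alternatives added after seeing the data, equal-length sites gave 4 higher and 1 lower genes with a site at a start, and sites without the second OmoMYC list 205 and 122, with 19.5% of nearest genes higher. The cause of these changes was not tested. Of the 14 genes named for a site at a start, 4 passed without the block, 9 without number 1, 10 without number 2 and 14 without number 3.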
